A study of Mus musculus with 3 samples.

Results

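A set of 10 oocyte genes (Gdf9, Bmp15, Zp1, Zp2, Zp3, Nlrp5, Ooep, Oosp1, Mos and Npm2) was followed in mouse blastocysts on 3 expression arrays, as transcripts that the egg makes and that may be left in the embryo. Their probes were found through the RefSeq accession that the array files give for each probe, which matched 12 probes, with 1 probe for 8 genes and 2 probes each for Zp2 and Nlrp5. The 10 genes were among 23458 genes that had a named probe. They were chosen by a result of the same arrays, a list median that was higher on the array of aging blastocysts than on that of young blastocysts. Differences between those arrays are therefore given as a description, and nothing is read from their direction.

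All blastocysts were of the ICR strain. Superovulated females were mated, zygotes were flushed from the oviducts 18 h after hCG, and the embryos were cultured in KSOM medium for 96 h. Mothers of the young group were 3 to 6 weeks old, and the embryos were cultured without additions. Mothers of the aging group were 43 to 53 weeks old, and these embryos were also cultured without additions. Mothers of the suppressed aging group were 43 to 53 weeks old too, and the embryos were cultured with 10 μg/ml of an antibody that neutralizes CXCL5, a chemokine, and with 10 nM of an antagonist of CXCR2, its receptor. Each group gave 1 pool of 30 blastocysts and 1 array, and all 3 arrays were read on 1 slide, so no difference has a replicate check and no test was possible. In a pool, more transcript in every embryo and more of it in a few embryos cannot be told apart.

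The growing oocyte transcribes these genes and stores much of the RNA. During meiotic maturation and after fertilization the stored RNA is degraded in waves, while the embryo's own genome takes over transcription around the cleavage stages. The zona pellucida, the glycoprotein coat that the oocyte builds, stays around the embryo until hatching, so the protein products can outlast their RNA. An array reads how much RNA is present and does not tell stored RNA from RNA newly made by the embryo.

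Promoters are shown because many oocyte genes are read through a few short motifs. FIGLA, an oocyte transcription factor, acts on the zona genes through the E-box (CANNTG), and NOBOX, another one, binds TAATTG or TAATTA. RefSeq windows of build GRCm38.p6, from 250 bases before to 50 bases after a transcription start, were at hand for 5 members with 6 starts, since Nlrp5 has 2. E-boxes are in capitals, and every window is written 5′ to 3′ on the strand of its gene. Zp3 (chr5:135979855-135980154, plus strand) and Bmp15 (chrX:6320675-6320974, minus strand) are shown as members over 2-fold higher on the aging than on the young array, Ooep (chr9:78378539-78378838, minus strand) as a member above background on all 3 arrays, and Oosp1 (chr19:11691002-11691301, minus strand) as a member above background on none.
Zp3: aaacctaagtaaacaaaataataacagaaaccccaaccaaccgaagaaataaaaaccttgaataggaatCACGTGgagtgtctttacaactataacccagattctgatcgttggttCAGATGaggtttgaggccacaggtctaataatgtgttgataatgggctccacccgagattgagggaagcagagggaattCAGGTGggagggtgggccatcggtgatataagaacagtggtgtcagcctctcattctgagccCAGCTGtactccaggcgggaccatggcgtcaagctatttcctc
Bmp15: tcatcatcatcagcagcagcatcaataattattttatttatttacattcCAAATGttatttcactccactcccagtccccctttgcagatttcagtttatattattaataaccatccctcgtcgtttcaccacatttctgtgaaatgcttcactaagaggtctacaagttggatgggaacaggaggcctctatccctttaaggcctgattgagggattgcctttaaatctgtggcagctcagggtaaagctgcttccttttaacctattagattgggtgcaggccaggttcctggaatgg
Ooep: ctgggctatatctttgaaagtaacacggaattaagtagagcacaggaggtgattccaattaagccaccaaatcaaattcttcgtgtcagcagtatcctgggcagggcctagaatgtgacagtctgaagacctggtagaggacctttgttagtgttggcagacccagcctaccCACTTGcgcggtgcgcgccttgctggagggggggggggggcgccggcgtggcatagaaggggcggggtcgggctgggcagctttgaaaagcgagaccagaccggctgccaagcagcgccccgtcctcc
Oosp1: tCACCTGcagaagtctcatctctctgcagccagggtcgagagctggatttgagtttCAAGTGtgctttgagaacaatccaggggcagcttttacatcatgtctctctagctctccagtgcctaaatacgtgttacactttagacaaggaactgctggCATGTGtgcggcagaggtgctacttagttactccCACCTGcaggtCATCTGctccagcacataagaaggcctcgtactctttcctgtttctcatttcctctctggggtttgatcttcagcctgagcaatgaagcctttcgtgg

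Both strands were searched. An E-box stood in 6 of 6 member windows and in 72.3% of 32851 windows of all genes. Its form CACGTG, which is itself an E-box, stood in 1 of 6 member windows, that of Zp3 at base -181 from the start, and in 7.15% of all windows. The NOBOX letters stood in 3 of 6 member windows and in 12.4% of all. They lay at -225 in Bmp15, at -189 in 1 window of Nlrp5 and at -195 in Ooep. A match is a description of the sequence and not evidence of binding.

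Levels are the log2 intensity of a probe minus the 75th percentile of its array, so a level of 0 is as bright as the probe at that percentile. The percentile was an intensity of 145, 155 and 122 on the young, aging and suppressed aging arrays. A probe was counted as present only where the scanner software called it well above background. The lowest level so called was -4.20, -4.32 and -3.93 on the same arrays and served as the detection limit. Where only 1 of the 2 arrays compared was above background, the difference is a bound, and where neither was, no difference is given.

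Of the 10 members, 7 were above background on at least 1 array, 3 on all 3 arrays (Zp3, Nlrp5 and Ooep) and 3 on none (Zp1, Oosp1 and Mos). By array, 5 of them were above background in young, 7 in aging and 5 in suppressed aging blastocysts, where 64.9%, 65.3% and 63.6% of all named genes were. All members were dim where present, and the highest level was 0.05, for Ooep on the aging array, which was an intensity of 160. For comparison, 70.8% of all 23458 named genes were above background on at least 1 array and 58.9% on all 3. The 12 probes and their detection limits are drawn in the plot of levels.

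**Figure D1:**
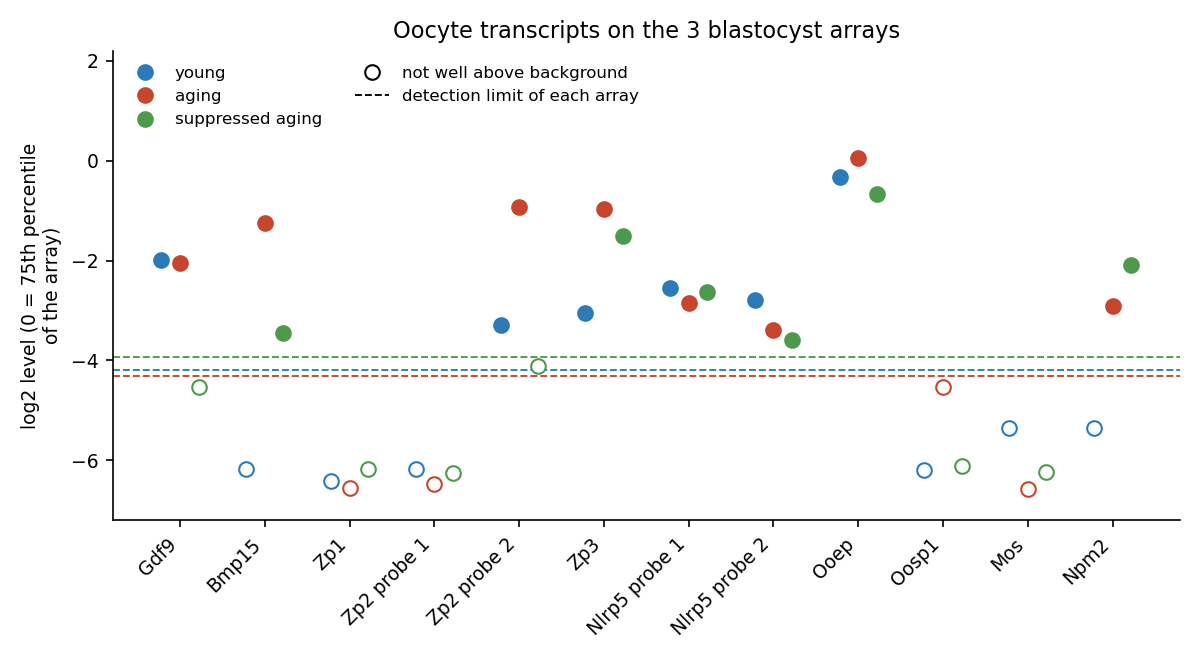
Log2 level of each of the 12 probes of the 10 oocyte genes (y axis; 0 is the 75th percentile of the array) on the young, aging and suppressed aging arrays, with 1 point per array and no replicates. Filled points were well above background, open points were not, and the dashed lines are the arrays' detection limits; Bmp15, Zp2 and Zp3 were brightest on the aging array, while Zp1, Oosp1 and Mos have open points only.

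Gdf9 and Bmp15 are secreted ligands of the TGF-β family through which the oocyte acts on the granulosa cells around it. Gdf9 had an intensity of 36.5 ± 3.99, 37.4 ± 4.06 and 5.27 ± 1.79 on the young, aging and suppressed aging arrays, where ± is the error that the scanner software gives for the spot and covers no difference between embryos. Its log2 levels were -1.99, -2.05 and -4.54, the last not above background. The young and aging arrays thus held nearly the same level, with a log2 difference of -0.06 and a scanner error of 0.22, which turned to 0.02 with centring on the housekeeping mean. On the suppressed aging array Gdf9 was at least 3.69-fold lower than on the aging array and at least 3.85-fold lower than on the young array.

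Bmp15 had an intensity of 2.01 ± 2.01, 65.0 ± 6.79 and 11.2 ± 2.05 on the young, aging and suppressed aging arrays. The levels were -6.17, which was not above background, -1.25 and -3.45. It was at least 7.72-fold higher on the aging than on the young array and 4.59-fold lower on the suppressed aging than on the aging array. Against the young array, the suppressed aging array was higher by a log2 difference of at least 0.75. Of these ligands, which act together in the follicle, the young array thus held Gdf9 and not Bmp15 above background, the suppressed aging array Bmp15 and not Gdf9, and the aging array both. On the suppressed aging array both lay near the detection limit of 8.01, with intensities of 11.2 for Bmp15 and 5.27 for Gdf9. Before correction, the Gdf9 spot there stood further above its local background (36 over 30) than the Bmp15 spot (39 over 35.5). The order of the 2 ligands on that array is therefore not firm.

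Zp1, Zp2 and Zp3 encode the filaments of the zona pellucida, in which ZP2 is the protein that sperm bind and ZP1 cross-links the filaments. Zp3 had an intensity of 17.5 ± 2.50, 79.0 ± 8.14 and 42.8 ± 4.67 on the young, aging and suppressed aging arrays, and levels of -3.05, -0.97 and -1.51. Present on all 3 arrays, it was lowest on the young array. It was 4.24-fold higher on the aging than on the young array and 2.90-fold higher on the suppressed aging than on the young array. Between the suppressed aging and the aging array its log2 difference was -0.55, with a scanner error of 0.22.

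The brighter probe of Zp2 had an intensity of 14.8 ± 2.48, 80.7 ± 8.29 and 7.06 ± 1.90 on these arrays. Its levels were -3.29, -0.94 and -4.12, the last not above background. It was 5.11-fold higher on the aging than on the young array, and at least 7.97-fold lower on the suppressed aging than on the aging array. The other Zp2 probe was above background on no array, with levels of -6.16, -6.47 and -6.26, so the pattern of Zp2 rests on 1 of its 2 probes. Zp1 was at -6.42, -6.55 and -6.17, not above background on any array. Of the zona genes, Zp2 and Zp3 could thus be compared, and after suppression Zp3 stayed above background while Zp2 did not.

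Nlrp5 and Ooep belong to the subcortical maternal complex, a protein assembly under the egg membrane that embryos need to pass the first cleavages. Ooep had an intensity of 115 ± 11.6, 160 ± 16.1 and 76.7 ± 7.86 on the young, aging and suppressed aging arrays, and levels of -0.34, 0.05 and -0.67. Its largest difference was the -0.73 between the suppressed aging and the aging array, with a scanner error of 0.21, which is under 2-fold. Between the aging and the young array it was 0.39, with the same scanner error of 0.21.

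The brighter Nlrp5 probe had an intensity of 24.9 ± 3.19, 21.5 ± 2.87 and 19.6 ± 2.64, and levels of -2.54, -2.84 and -2.64. The other Nlrp5 probe lay at -2.79, -3.38 and -3.59. Both probes were lower on the aging than on the young array, by log2 differences of -0.30 and -0.59 with scanner errors of 0.27 and 0.29. Between the suppressed aging and the aging array the probes went opposite ways, at 0.21 and -0.21 with scanner errors of 0.27 and 0.36. No comparison of either Nlrp5 probe or of Ooep passed 2-fold.

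Npm2, nucleoplasmin 2, is a histone chaperone of the egg that takes part in remodelling chromatin after fertilization. Its intensity was 3.54 ± 1.91, 20.6 ± 2.74 and 28.7 ± 3.34 on the young, aging and suppressed aging arrays. The levels were -5.36, which was not above background, -2.91 and -2.09. Of the 7 members that could be compared, it alone was brightest on the suppressed aging array. It was at least 2.44-fold higher on the aging than on the young array, at least 4.30-fold higher on the suppressed aging than on the young array, and 1.76-fold higher on the suppressed aging than on the aging array.

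Mos is the kinase that starts the MAP kinase cascade holding the egg in metaphase of its second division, and Oosp1 encodes a protein secreted by the oocyte. Mos lay at levels of -5.35, -6.57 and -6.24 and Oosp1 at -6.20, -4.52 and -6.11 on the young, aging and suppressed aging arrays. None of these values was above background. Oosp1 on the aging array came nearest, with an intensity of 6.72 against a detection limit of 7.73, so for both genes the arrays give no order.

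Between the aging and the young array, the contrast by which the list was chosen, 4 members were over 2-fold higher (Bmp15, Zp2, Zp3 and Npm2) and 0 over 2-fold lower, with Gdf9, Nlrp5 and Ooep under 2-fold and Zp1, Oosp1 and Mos not measured. Bmp15 and Npm2 entered only through the aging array and had to be higher there. Of 16164 named genes that could be compared, 9.86% were over 2-fold higher and 9.19% over 2-fold lower. Among the 8275 of them with a mean level below 0, as the compared members had, these shares were 14.9% and 13.3%. The median log2 difference of the 7 members was 1.29, against 0.03 for all named genes and -0.01 for the dim ones. This member median is the bound of Npm2 and not a measured difference. Over the 5 members above background on both arrays the median was 0.39.

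Between the suppressed aging and the aging array, 3 members were over 2-fold lower (Gdf9, Bmp15 and Zp2) and 0 over 2-fold higher. Gdf9 and Zp2 were not above background on the suppressed aging array and could only come out lower, and of the 5 members above background on both arrays 1 (Bmp15) was over 2-fold lower. Of 15875 named genes, 8.5% were over 2-fold lower and 8.77% over 2-fold higher, and of the 7986 dim genes 13.7% and 13%. The median of the 7 members was -0.73, against -0.0034 for all named genes. This comparison shares the aging array with the one above, so members bright on that array come out higher in the first and lower in the second, and the 2 are not separate evidence. Of 7 members compared in both, 2 (Bmp15 and Zp2) were over 2-fold brighter on the aging array than on both other arrays, as were 4.61% of 15452 named genes. No share of dim genes was computed for this count, and in the comparisons above dim genes passed 2-fold more often than all named genes. Bmp15 was not above background on the young array, nor Zp2 on the suppressed aging array, so those directions were fixed.

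Between the suppressed aging and the young array, 2 members were over 2-fold higher (Zp3 and Npm2) and 1 over 2-fold lower (Gdf9). The shares were 8.67% and 7.64% of 15931 named genes, and 12.7% and 11.3% of the 8042 dim ones. The median of the 7 members was -0.10, against 0.03 for all named genes. When the probes of each gene were averaged, Zp2 could no longer be compared, and the median of the 6 members left was 0.21. Of the 7 differences by the brightest probe, 4 were bounds, since Gdf9, Bmp15, Zp2 and Npm2 were each above background on only 1 of the 2 arrays, which fixed their direction. The plot of member differences gives all 3 comparisons.

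**Figure D2:**
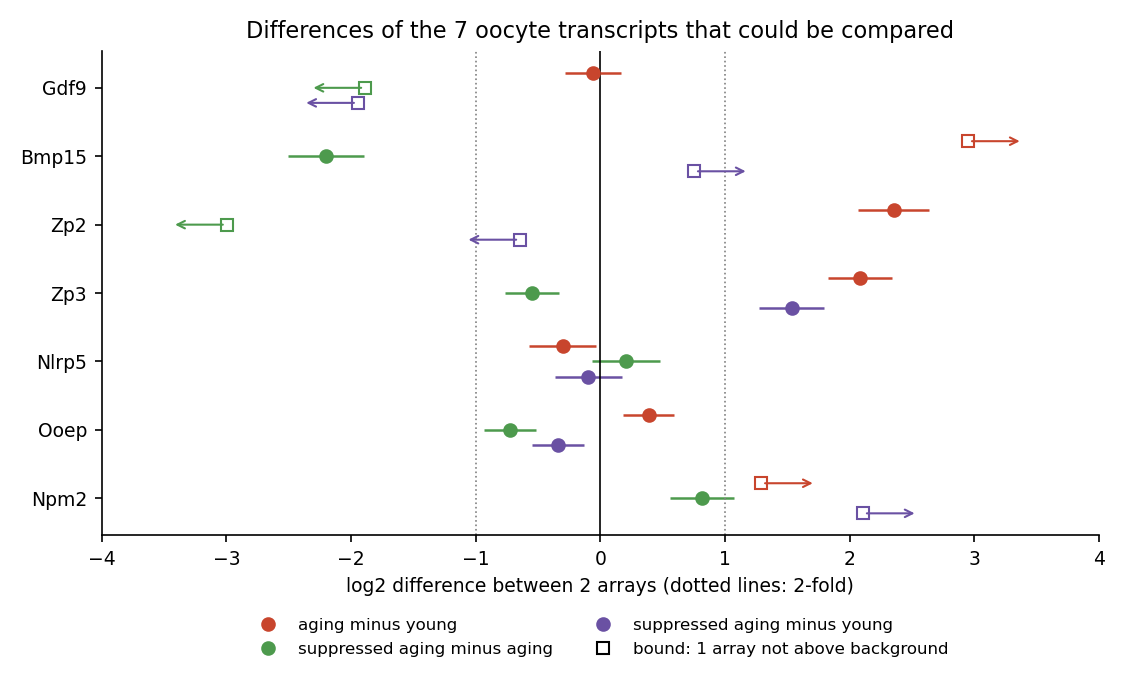
Log2 difference between 2 arrays (x axis; dotted lines at 2-fold) for the 7 oocyte genes above background on at least 1 array, by the brighter probe of each gene. Circles were above background on both arrays, with the scanner's error as bar; open squares with arrows are bounds. Bmp15 and Zp2 lie far to the right for aging minus young and far to the left for suppressed aging minus aging, while Nlrp5 and Ooep stay within 2-fold.

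These counts depend on how the background was treated. With normexp background correction and an offset of 50, which pulls dim probes together, no member was over 2-fold apart in any comparison, and the median of aging against young was 0.30. Without an offset, 3 members remained over 2-fold higher on the aging array (Bmp15, Zp2 and Zp3) and Npm2 was at 0.68. The 10 spots that the design gives to some probes had a median SD of 0.05 on the young array, but 0.17 for the 16 such probes with levels between -4 and 0, where most member values above background lie. The spread of dim genes between the arrays is drawn in the plot of dim named genes.

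**Figure D3:**
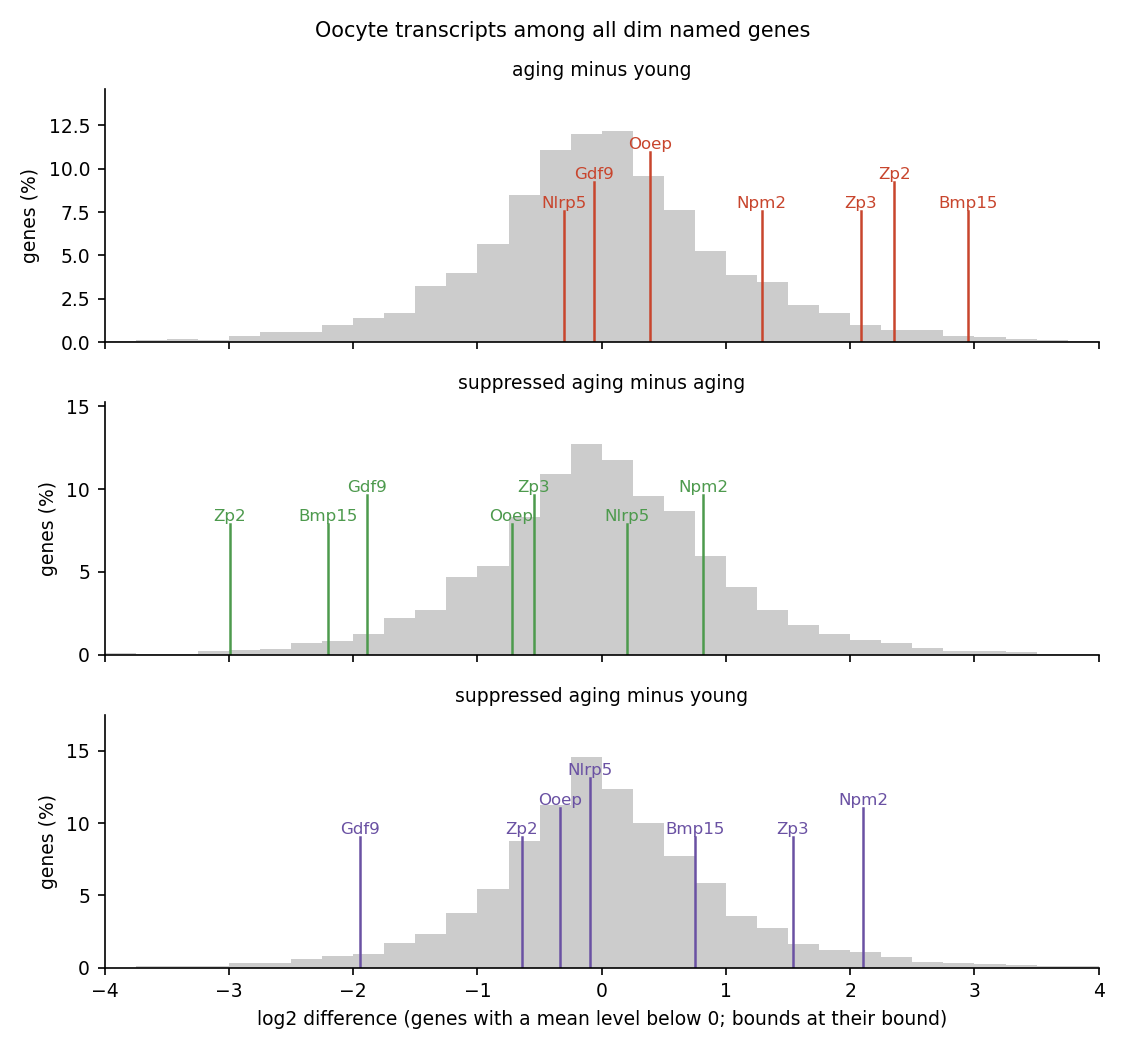
Share of named genes with a mean level below 0 (y axis, percent) by log2 difference (x axis) for each of the 3 comparisons, with the 7 compared oocyte genes as labelled lines and bounds placed at their bound. Bmp15, Zp2 and Zp3 lie in the right tail for aging minus young, and Zp2, Bmp15 and Gdf9 in the left tail for suppressed aging minus aging.

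A further 70 genes of the oocyte, in 7 lists by role, show what surrounds the members. Each was read by its brightest probe unless another probe is named, and the probes of a gene did not always go the same way. Of these genes, 68 had a probe, 50 were above background on at least 1 array, 39 on all 3 and 18 on none. Of all named genes, 70.8% were above background on at least 1 array and 58.9% on all 3. Many of the listed genes, such as Dppa3, Uhrf1, Trim28, Cd9 and Ccnb1, are also transcribed by the embryo. Their median log2 difference was 0.02 for aging against young (47 genes compared), 0.04 for suppressed aging against aging (49 genes) and 0.08 for suppressed aging against young (47 genes). Over 2-fold, 3 were higher and 3 lower in the first, 6 higher and 5 lower in the second, and 7 higher and 2 lower in the third. The shares of all named genes were 9.86% and 9.19% in the first, 8.77% and 8.5% in the second, and 8.67% and 7.64% in the third.

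By their brightest probes, the other genes of the subcortical maternal complex stayed within 2-fold. Of 6, 5 were above background on all arrays (Khdc3, Tle6, Padi6, Zbed3 and Nlrp4f) and Nlrp2 on none. The list medians were 0.24, -0.15 and 0.23 for the 3 comparisons in the order given. Khdc3, a structural partner of NLRP5 and OOEP and the brightest of the list, was at 6.11, 6.35 and 6.39 on the young, aging and suppressed aging arrays. Tle6 had levels of 1.28, 2.18 and 1.42, highest on the aging array. The dimmer probes were further apart: that of Nlrp4f lay at -1.73, -0.34 and 0.24 and that of Zbed3 at -2.60, -1.59 and -2.34, both more than 2-fold higher on the aging than on the young array. That of Padi6 was lower on the aging than on the young array, at -0.76, -1.32 and -1.73.

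The transcription factors that act before the members in the oocyte were not all present. Figla and Nobox, whose motifs were searched above, were above background on no array. Sohlh1 was present only on the aging array, at -3.61. Sohlh2, a factor of early follicles, was at 0.91, 0.07 and 1.26, and its difference of 1.19 between the suppressed aging and the aging array was the only one of the list over 2-fold. Taf4b and the brighter probe of Lhx8 stayed within 2-fold, and the list medians were 0.01, -0.23 and -0.03.

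Among regulators of stored RNA, 1 of the 2 probes of Dazl was ordered over the arrays as Bmp15 was. DAZL binds the 3′ ends of messenger RNAs and drives their translation in germ cells. This probe was at -3.89, which was not called above background, -0.47 and -1.83, while the other Dazl probe was above background on no array (-5.79, -6.01 and -4.64). Its log2 difference was at least 3.41 between aging and young, and -1.36 between suppressed aging and aging. Btg4, which recruits the machinery that removes poly(A) tails from maternal RNA, was above background on no array, as were Zar1, Zar1l and Pabpn1l. The list's median for suppressed aging against young was 1.03, with 4 of 8 genes over 2-fold higher, against 8.67% of all named genes. Ybx2, an RNA-masking protein and the brightest of the list, was at 4.04, 4.41 and 5.38. Cpeb1 had levels of -1.81, -2.06 and -0.58, and Patl2 of -1.57, -1.20 and -0.33.

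Of 5 oocyte surface and secreted proteins compared between the aging and the young array, 2 were over 2-fold lower, against 9.19% of all named genes. Zp2 and Zp3 were higher on the aging array. Izumo1r, the egg receptor for sperm, was at -1.40, -2.64 and -2.25 by 1 probe, and its other probe was above background on no array. Plat, a secreted plasminogen activator, was at -2.24, -4.28 and -2.45, and on the aging array it was not above background. Cd9, a membrane protein needed for fusion with sperm and the brightest of the list, was at 6.06, 6.22 and 6.14. The list medians were -0.38, 0.25 and -0.14.

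Among meiotic regulators, the list to which the kinase Mos is nearest, 6 of 9 were above background on all arrays and 3 on none (Fbxo43, Ccnb3 and Wee2). Aurkc, an Aurora kinase of meiosis, was at 1.09, 2.31 and 1.71, with a difference of 1.22 between aging and young. Ccnb1, a cyclin of dividing cells and the brightest of the list, was at 3.35, 2.76 and 3.43 by its brightest probe. Another Ccnb1 probe, at 1.75, 1.12 and 2.00, was also lowest on the aging array, but a further one, at 1.53, 2.04 and 1.23, was highest there. The list medians were -0.14, -0.03 and -0.01.

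The maternal chromatin factors, the role nearest to that of Npm2, had medians of 0.03, -0.08 and -0.07. Dppa3, which protects the maternal genome from demethylation and is the brightest of the list, was nearly level at 7.48, 7.52 and 7.49. Trim28, a corepressor that guards imprints, was at 4.28, 5.06 and 3.74 by its brighter probe and at 3.31, 2.02 and 3.12 by the other, so the probes went opposite ways and give the gene no direction. Nlrp14 was above background only on the suppressed aging array, at -2.65.

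In the last list, the Obox homeobox genes and other oocyte-enriched genes, the medians were -0.04, 0.34 and 0.31. Bcl2l10, a relative of BCL2 that is abundant in eggs, was above background only on the aging array, with levels of -5.88, -1.96 and -6.19. Obox1 was at -2.43, -3.06 and -0.60, and Obox6 at -2.22, -2.29 and -6.24, the last not above background. Uchl1 lay at -1.94, -1.64 and -2.95 and Oog1 at -2.74, -2.45 and -1.36. The probes of Nlrp9b went opposite ways: the brighter lay at -3.02, -4.34 and -3.58 and was not above background on the aging array, and the other lay at -4.41, -3.86 and -4.26 and was above background only there. Oas1d, the brightest of the list, was at 2.91, 2.79 and 2.63. The plot of other oocyte genes shows all lists.

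**Figure D4:**
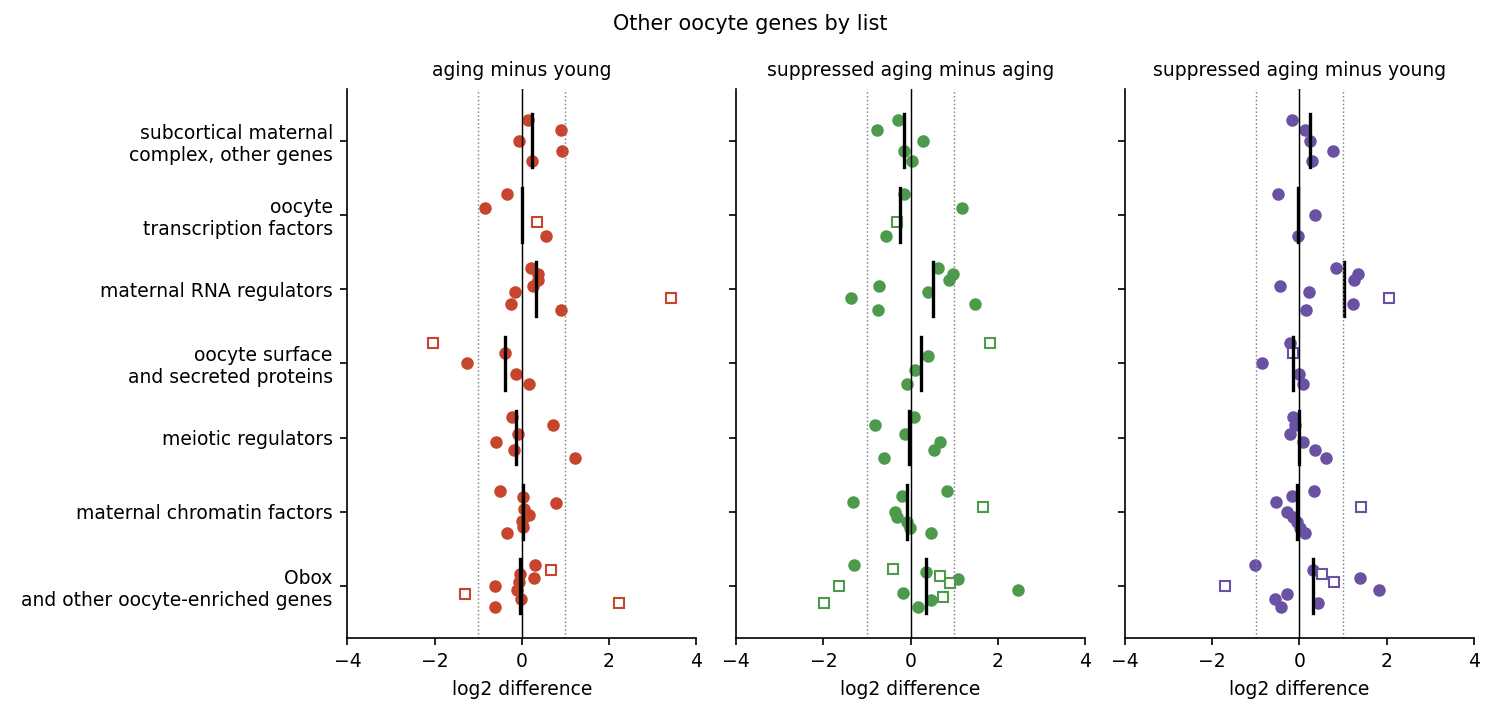
Log2 difference (x axis; dotted lines at 2-fold) of each measured gene in 7 lists of other oocyte genes, for the 3 comparisons. Circles were above background on both arrays, open squares are bounds and black bars are list medians; most genes lie within 2-fold, and the far right square for aging minus young is the brighter probe of Dazl.

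Markers of other cells were read on the same arrays. Of 10 trophectoderm markers, 9 were above background on all arrays, as were 10 of 10 inner cell mass markers. The inner cell mass list had a median of 0.67 between aging and young, against 0.03 for all named genes. Of its 10 genes, 4 were over 2-fold higher (Sox2, Pdgfra, Esrrb and Fgf4) and 1 lower (Sox17), where 9.86% and 9.19% of all named genes were. The other Sox17 probe was higher on the aging than on the young array, at -1.73, -1.41 and -1.07. For suppressed aging against aging the list's median was -0.34. The trophectoderm list had medians of -0.18 and 0.18. Between aging and young, 1 of its 10 genes was over 2-fold higher and 2 were lower (Krt7 and Tfap2c), beside the same shares of all named genes. The higher gene was Hand1, above background only on the aging array, at -1.35. The other Tfap2c probe was not lower on the aging array, at 0.27, 0.36 and 0.57. Summed on the linear scale, in units of the 75th percentile, the inner cell mass level was 1042, 1262 and 1159 on the young, aging and suppressed aging arrays, and the trophectoderm level 508, 384 and 451. Most of the inner cell mass sum came from 1 probe of Nanog, at log2 levels of 9.88, 10.14 and 10.03. The largest part of the trophectoderm sum came from Krt18, at 8.05, 7.52 and 7.73. The sums thus describe these genes more than the lists.

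Genes of the 2-cell stage were mixed. Of 9 with a probe, 4, 5 and 4 were above background on the young, aging and suppressed aging arrays, and their summed level was 1.06, 1.74 and 1.17. The largest part of this sum came from Tcstv3 on the aging array and from Zfp352 on the other arrays. The sum thus describes single genes more than the list. Of 6 compared between aging and young, 3 were over 2-fold higher and 2 over 2-fold lower, with a median of 0.78. The shares of all named genes were 9.86% and 9.19%. Tcstv3, at -3.42, -0.35 and -1.89, and 1 of the 2 probes of Zscan4c, above background only on the aging array at -2.83, were highest there, as Bmp15, Zp2 and Zp3 were. Tdpoz4 was highest on the suppressed aging array, at -5.63, -2.67 and -2.05, and Tdpoz3 on the young array, at -3.31, -5.14 and -5.58. The probes of Zfp352 disagreed, the brightest at -0.93, -1.98 and -1.30 and another at -2.04, -0.35 and -2.73.

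Cumulus and granulosa cells surround the egg at ovulation. Of 14 of their markers, 7 were above background on no array (Fshr, Lhcgr, Has2, Ptx3, Tnfaip6, Inha and Inhba). On all arrays 6 were above (Cyp19a1, Amh, Amhr2, Foxl2, Star and Nr5a2), and Pgr was above on the aging array only. Cyp19a1 was at -1.18, -1.31 and -1.01 on the young, aging and suppressed aging arrays. The brightest probe of Amhr2 was at -0.89, 0.18 and -0.47, and another at -0.90, -1.65 and -1.70. The summed level of the 14 markers was 411, 380 and 444, nearly all from Foxl2, and without Foxl2 it was 6.10, 6.77 and 6.32. Most of this remainder came from Nr5a2, which was nearly level at 2.25, 2.27 and 2.23. Its rise on the aging array came mostly from the brightest probe of Amhr2, whose other probe named above was lower there than on the young array. The summed level of 8 sperm markers was 1.95, 1.52 and 1.65, lowest on the aging array. The part of any of these cell types or stages in the levels of the members was not tested.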

How the data were processed

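The members and lists were chosen with earlier results of these data known. The authors deposited, for each array, the linear intensity of every spot, from which Agilent Feature Extraction 12.0.3.1 had subtracted background and spatial trend, with no normalization between arrays. Amplification is described in their methods as a global PCR from a single primer and in the labels as a cRNA labelling kit, which the files do not settle. The choice could change the levels of rare transcripts most.

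Control spots and spots marked as outliers were left out (100, 85 and 118 on the young, aging and suppressed aging arrays), and none was saturated. Values were converted to log2, averaged over the spots of a probe and set relative to the array's 75th percentile. Values on all arrays were at hand for 56591 of 56605 probes, and 33759 were named through RefSeq accessions. The gene table is of GRCm38.p6 and the array design names an older build, so no probe coordinates are given. A gene was read by the probe with the highest mean signal. For a probe above background on 1 of the 2 arrays compared, the dim array was set to the higher of its detection limit and its own signal.

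The text names all 10 members with every probe, and of the 7 lists of other oocyte genes those over 2-fold apart and the brightest. Marker genes named were chosen after their values were seen. After seeing the data, 2 things were added: the share of dim genes over 2-fold apart, and normexp without an offset. With 1 array per condition no test was made, and the number of arrays limits the precision. Alternatives were normexp (limma 3.58.1 in R 4.3.3), quantile normalization, other centrings, the authors' processed values (the intensity times 1 factor per array), outlier spots kept, the mean over probes, other filters and a 5-fold threshold. Scripts were tested on simulated data, in which only probes brighter than any member were changed. Changes of dim probes and bounds were therefore not covered. Python 3.11.15, NumPy 2.4.6, pandas 2.3.3 and Matplotlib 3.10.9 were used.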

Additional observations from a re-analysis of the deposited data

How the results depend on the processing

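The median log2 difference of the compared members was 1.29 for aging against young, and became 0.30 with normexp and an offset of 50, 0.68 with normexp without an offset (added after seeing the data), 1.37 with quantile normalization, 1.36 with centring on the housekeeping mean, 1.03 with the mean over probes, 0.39 with genes above background on both arrays and 1.03 with no filter. For suppressed aging against aging it was -0.73, and became -0.34 with normexp and an offset, -0.82 with housekeeping centring, -0.82 with the authors' processed values, -0.55 with the mean over probes, -0.55 with genes above background on both arrays and -0.64 with no filter. Between suppressed aging and young it was -0.10, and became -0.0031 with quantile normalization, -0.34 with normexp without an offset, -0.0050 with no filter and, with the sign turned, 0.21 with the mean over probes. This last value is of 6 members, since Zp2 dropped out. The members over 2-fold apart were 4, 3 and 3 in these comparisons, and became 0, 0 and 0 with normexp and an offset, 2, 1 and 1 with genes above background on both arrays, and 2, 1 and 0 at 5-fold. Of 201 values of single members under an alternative, 198 kept their direction, and the 3 that did not were Gdf9 for aging against young (-0.06, and 0.02 with housekeeping centring) and Nlrp5 for suppressed aging against aging (0.21, and -0.09 with normexp without an offset and -0.0010 with the mean over probes). The cause of these changes was not tested, beyond the fewer genes that the stricter filter leaves and the loss of Zp2 from the mean over probes. No paired analysis was possible because there are no replicates to pair. Dim signal near background limits every value of the members.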
